A study of Drosophila melanogaster with 8 samples.

Results

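The γH2Av-enriched regions described here are those on chromosome 4 of Drosophila melanogaster and on the mapped heterochromatin of the dm3 genome build. Their members were all peaks whose sequence was chromosome 4 or had a name ending in Het (2LHet, 2RHet, 3LHet, 3RHet, XHet and YHet), and no measured value entered the choice. They numbered 375 of the 14456 peaks in the 4 lists together. When peaks that overlapped by 1 bp or more were merged over the lists, they gave 131 of 4731 regions, 50 on chromosome 4 and 81 on the Het sequences.

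The study compared S2 cells, an established Drosophila cell line, labelled WT with S2 cells depleted by RNAi of dH1, the linker histone of the fly, and profiled γH2Av in 2 replicates of each by ChIP-seq. Depletion used dsRNA (100 μg) added on days 1, 4 and 7 of an incubation of 8 days. The WT cells were untreated according to the study's methods, so that dH1 loss and exposure to dsRNA cannot be told apart. The 4 ChIP libraries, each with its own input, gave 1 peak list each, and the study describes the replicates as independent biological experiments.

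γH2Av is the phosphorylated form of H2Av, the Drosophila histone variant that covers the roles of both H2A.X and H2A.Z in other animals. It forms around DNA breaks, but promoters of active genes carry the mark too, so that a peak need not mark a break. Chromosome 4 is the small dot chromosome. It is rich in repeats and is coated by the heterochromatin protein HP1a and by the protein POF, yet it carries many genes that are transcribed. The Het sequences are assembled stretches of the heterochromatin that flanks the centromeres, and of the X and Y heterochromatin, placed on a chromosome arm but not joined to it. They hold transposable elements, other repeats and few genes. H1 is abundant in such chromatin and takes part in its compaction.

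The peak lists carried no reads, so neither depth nor the knockdown of dH1 could be read from them. Reads had been allowed to align at many sites, so that repeats of the Het sequences and chromosome 4 can share reads. Regions are given in dm3 coordinates. No dm3 sequence or annotation was used here, and therefore no bases are shown and no region is assigned to a gene.

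The lists were 3761 peaks long in WT 1, 3925 in WT 2, 3733 in dH1 RNAi 1 and 3037 in dH1 RNAi 2. WT 1 stood apart in its make-up. It had 391 peaks on the unplaced sequences U and Uextra, against 81 to 116 in the other lists, and 86.7% of its peaks on the large arms (2L, 2R, 3L, 3R and X), against 94.5% to 95.5%. Several comparisons between conditions on the Het sequences are therefore also given without WT 1. The shares of Het regions called per library are not. With 2 libraries against 2, an exact permutation test over the 6 labelings cannot give a two-sided p below 0.333. A comparison made within each library, tested by exact sign flips over the 4 libraries, cannot go below 0.125. Neither exact test could reach 0.05 in this design.

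Chromosome 4 carried peaks at about the density of the large arms, and the Het sequences carried them at a much lower density. WT 1 had 42 peaks on chromosome 4 (1.12% of its list, 95% Wilson interval 0.827 to 1.51), and WT 2 had 48 (1.22%, 0.924 to 1.62). The dH1 RNAi libraries had 33 (0.884%, 0.630 to 1.24) and 28 (0.922%, 0.639 to 1.33). Both WT libraries were thus above both dH1 RNAi libraries in number, while the intervals of all 4 shares overlapped. The Het sequences together held 66 peaks in WT 1 (1.75%, 1.38 to 2.23), 46 in WT 2 (1.17%, 0.880 to 1.56), 56 in dH1 RNAi 1 (1.5%, 1.16 to 1.94) and 56 in dH1 RNAi 2 (1.84%, 1.42 to 2.39). Here the WT libraries were the highest and the lowest.

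Density was taken per Mb of span, where the span of a sequence ended at the highest peak end in any list, since the lists hold no chromosome lengths. Densities are therefore upper bounds. Chromosome 4 had 31.8 and 36.3 peaks per Mb in WT and 24.96 and 21.2 in dH1 RNAi. The pooled Het sequences had 7.64 and 5.32 in WT and 6.48 in both dH1 RNAi libraries. The density on chromosome 4 was 4.16 and 6.82 times that on the Het sequences in WT 1 and WT 2, and 3.85 and 3.27 times in dH1 RNAi 1 and 2. The mean was 4.35-fold (2.12 on the log2 scale), with the same direction in 4 of 4 libraries (exact sign-flip permutation test, two-sided p = 0.125, the smallest it allows). Against the large arms, the Het sequences were at 0.229 times the density on average, lower in 4 of 4 libraries (exact sign-flip permutation test, p = 0.125).

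Each of the larger Het sequences was low on its own. 2RHet, the longest with a span of 3.27 Mb, had 6.42 and 4.59 peaks per Mb in WT and 5.81 and 6.42 in dH1 RNAi. 3LHet ranged from 6.63 to 7.46 over the 4 libraries. 3RHet varied most, with 7.55 and 3.97 in WT 1 and WT 2 and 6.36 and 5.17 in dH1 RNAi 1 and 2. Every one of these values was below that of chromosome 4 in the same library. The spans of 2LHet, XHet and YHet were 0.200, 0.0855 and 0.156 Mb, too short to read a density from.

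**Figure D1:**
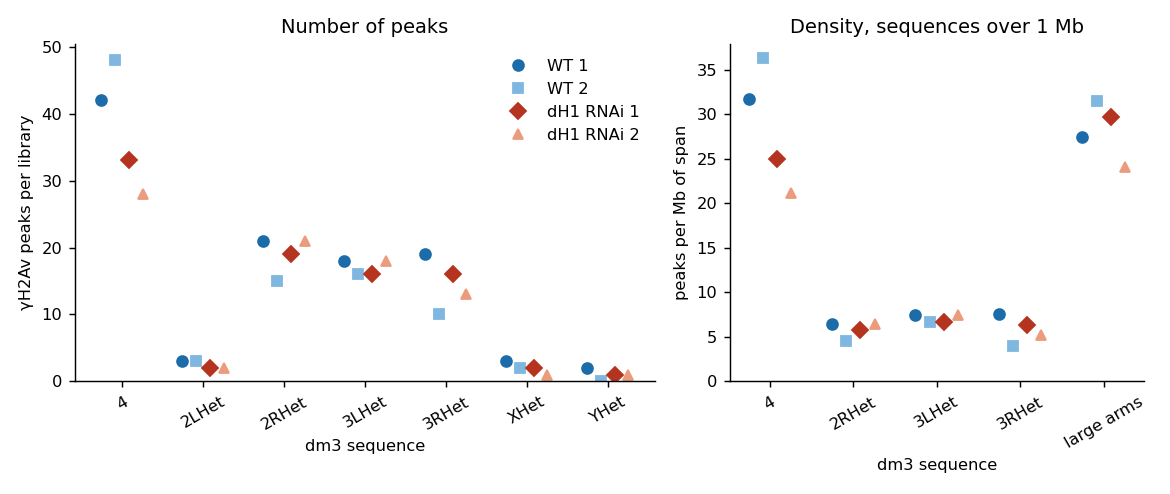
Number of γH2Av peaks on chromosome 4 and each Het sequence (left) and peaks per Mb of span on the sequences longer than 1 Mb and on the pooled large arms (right), with 1 point per library. Chromosome 4 held 42 and 48 peaks in WT and 33 and 28 in dH1 RNAi, and its density of 21.2 to 36.3 per Mb lay near the large arms and above 2RHet, 3LHet and 3RHet in each library.

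Peaks differed in width and in strength between these sequences as well. The median width on chromosome 4 was 1870 and 1869 bp in WT and 2011 and 1863 bp in dH1 RNAi. On the Het sequences it was 4192 and 3101 bp in WT and 3329 and 2978 bp in dH1 RNAi, and on the large arms it lay between 2439 and 2585 bp. On the arm X alone it was 2193 and 2150 bp in WT and 2062 and 2192 bp in dH1 RNAi, above chromosome 4 in each library. The chromosome 4 median minus that of the large arms was between -715.5 and -428 bp, narrower in 4 of 4 libraries, and the Het median exceeded that of the large arms by 499 to 1607 bp in 4 of 4 (exact sign-flip permutation tests, p = 0.125 each). Peaks on 2RHet were wider in WT 1, with a median of 4720 bp, than in the other libraries, with 3139 to 3743 bp, and those of XHet and YHet were all narrow, between 1271 and 2330 bp.

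Strength was read as the percentile of a peak's score within its own list, from 0 for the weakest to 100 for the strongest, because the score grows with depth. At the top of the lists the scores tied at 3100, with 14 peaks at that value in WT 1, 29 in WT 2, 9 in dH1 RNAi 1 and 2 in dH1 RNAi 2, and 0 to 7 above it, so that the order of the strongest peaks cannot be compared between lists. Among the members, the tied peaks lay in 1 merged region on chromosome 4 and in 2 on the Het sequences. Chromosome 4 peaks had a median percentile of 49.0 in WT 1, 26.2 in WT 2, 26.5 in dH1 RNAi 1 and 32.2 in dH1 RNAi 2. They lay 18.5 points below the large arms on average, lower in 4 of 4 libraries (exact sign-flip permutation test, p = 0.125). The arm X alone had medians of 43.0, 36.4, 35.3 and 37.9 in the same order. Chromosome 4 was thus above X in WT 1 and below it in the other libraries. Het peaks had medians of 71.9, 63.2, 66.4 and 50.9 in the same order. They were above the large arms in 3 of 4 libraries by 12.1 to 18.0 points, and -0.41 points apart in dH1 RNAi 2 (mean 11.2, exact sign-flip permutation test, p = 0.25). Of the 66 Het peaks of WT 1, 21 (31.8%) were at percentile 90 or above, against 5 of 46 (10.9%) in WT 2, 14 of 56 (25%) in dH1 RNAi 1 and 12 of 56 (21.4%) in dH1 RNAi 2. On chromosome 4 between 1 and 4 peaks per library were that strong.

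**Figure D2:**
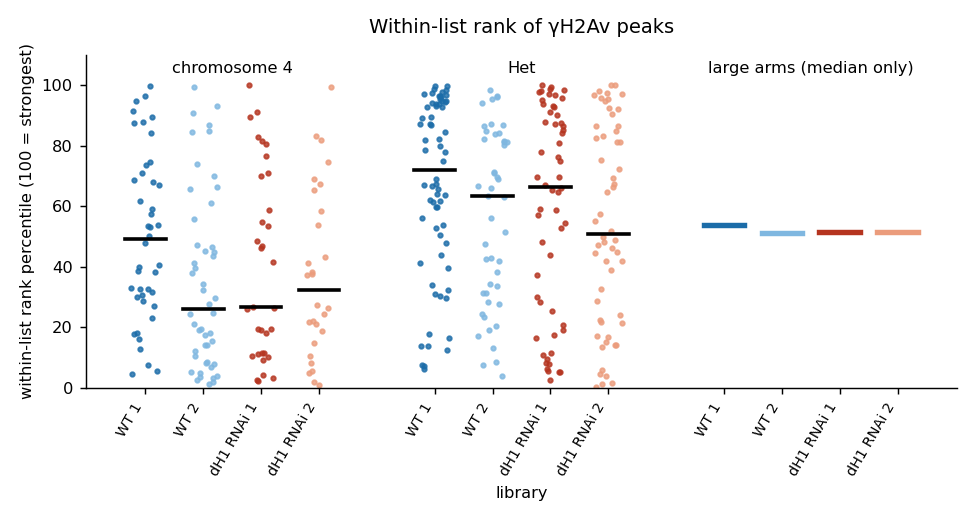
Percentile of each γH2Av peak within its own list, from 0 for the weakest to 100 for the strongest, for chromosome 4 and the pooled Het sequences, with 1 point per peak, a black line at the median and coloured lines at the medians of the large arms. Chromosome 4 medians lay between 26.2 and 49.0 and Het medians between 50.9 and 71.9, with members of both spread over most of the range.

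The next comparison asked whether peaks on these sequences differed between WT and dH1 RNAi cells. On chromosome 4 the WT libraries had a mean of 45.0 ± 4.24 peaks and the dH1 RNAi libraries one of 30.5 ± 3.54 (SD, n = 2), a difference of -14.5 that was larger than the spread of either pair (exact permutation test, two-sided p = 0.333, the smallest possible). The share of the span under peaks was 8.61% and 9.02% in WT and 6.57% and 4.91% in dH1 RNAi, a difference of -3.07 points, again without overlap between the conditions (exact permutation test, p = 0.333). In WT these peaks covered 114 and 119 kb, and in dH1 RNAi 86.9 and 65.0 kb. This was not particular to chromosome 4. Of the large arms, X separated in the same direction, with 555 and 605 peaks in WT and 495 and 322 in dH1 RNAi. On 2L, 2R, 3L and 3R the numbers overlapped between the conditions. The medians of width and percentile on chromosome 4 differed by 67.8 bp and -8.21 points (exact permutation tests, p = 1 for both). The WT replicates spread less than this in width (SD 0.707 bp) and more in percentile (SD 16.1), and the dH1 RNAi replicates more in width (SD 105 bp) and less in percentile (SD 4.01), and in both measures the conditions overlapped.

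The lists differed in length, so the numbers were also taken under other limits. The part of list length in the difference was not tested beyond this. When each list was limited to its 3037 strongest peaks, the length of the shortest, chromosome 4 held 35 and 26 peaks in WT 1 and WT 2 and 22 and 28 in dH1 RNAi 1 and 2, and the conditions overlapped. With a score of at least 100, the numbers were 35 and 34 against 22 and 16. Relative to the large arms of the same library, chromosome 4 was 1.16 and 1.15 times as dense in WT and 0.842 and 0.877 times as dense in dH1 RNAi. On the log2 scale this ratio averaged 0.21 ± 0.01 over the WT libraries and -0.22 ± 0.04 over those of dH1 RNAi (SD, n = 2), a difference of -0.43 (exact permutation test, p = 0.333). With lists of equal size the difference was -0.32 and the libraries of the 2 conditions overlapped (exact permutation test, p = 0.667).

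The Het sequences gave 56.0 ± 14.1 peaks for the WT libraries and 56.0 ± 0 for those of dH1 RNAi (SD, n = 2), a difference of 0. This equality rests on WT replicates that lay 20 peaks apart: without WT 1 the difference was 10 and without WT 2 it was -10. The covered share was 3.18% and 2.00% in WT and 2.35% and 2.19% in dH1 RNAi, the dH1 RNAi libraries between the WT ones. Medians of width and percentile differed by -493 bp and -8.88 points between conditions (exact permutation tests, p = 0.667 for both), and the width difference became 52.8 bp without WT 1.

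Among the Het sequences only 2LHet separated the conditions in number, with few peaks in all. It had 3 peaks in each WT library and 2 in each dH1 RNAi library. 2RHet had 21 and 15 peaks in WT and 19 and 21 in dH1 RNAi, and 3LHet had 18 and 16 in WT and 16 and 18 in dH1 RNAi. 3RHet had 19 and 10 in WT and 16 and 13 in dH1 RNAi. XHet had 3 and 2 peaks in WT and 2 and 1 in dH1 RNAi. YHet had 2 peaks in WT 1, 1 in each dH1 RNAi library, and 0 of 3925 in WT 2.

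Along chromosome 4 the peaks were unevenly placed. Of the 50 regions, 40 lay within 10 kb of another, the median distance between neighbours was 7705 bp, and 6 gaps exceeded 50 kb. The longest gaps were 168174 bp (chr4:718913-887086), 153474 bp (chr4:889207-1042680) and 120178 bp (chr4:1082150-1202327). Gaps were taken between regions merged over the 4 libraries, so by definition no library has a peak in them. The densest stretch of 100 kb was chr4:200001-300000, with 6 peaks in WT 1, WT 2 and dH1 RNAi 1 and 7 in dH1 RNAi 2, and 5 of its 6 regions were called in all 4 libraries. In the stretch chr4:300001-400000 the WT libraries had 6 peaks each and the dH1 RNAi libraries 3 and 2. In chr4:400001-500000 they had 3 and 4 against 1 and 0. The lower-coordinate part of the span, up to its midpoint, held 26 of 42 and 28 of 48 peaks in WT and 21 of 33 and 16 of 28 in dH1 RNAi, between 57.1% and 63.6% in all libraries.

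**Figure D3:**
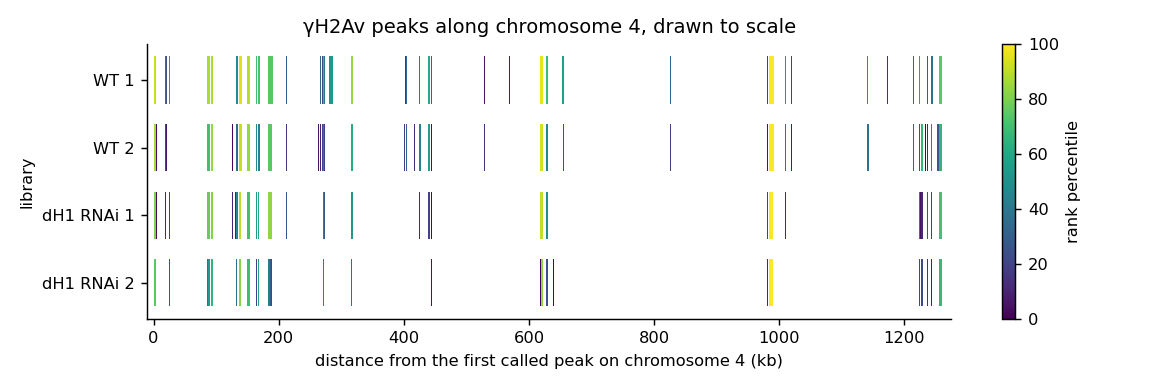
γH2Av peaks along chromosome 4 in each library, drawn to scale as distance in kb from the first called peak, with colour for the percentile within the list (0 weakest, 100 strongest). Clusters fell at similar places in the 4 libraries, and 10 narrow regions in the WT rows had no counterpart in either dH1 RNAi row. Gaps between merged regions are empty in all 4 rows by definition.

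Het regions were more scattered and lay in clusters of their own. Within 10 kb of another region were 16 of 27 on 2RHet, 10 of 21 on 3LHet and 13 of 24 on 3RHet, against the 40 of 50 on chromosome 4. The longest gaps were 948303 bp on 2RHet (2RHet:1624633-2572935), 654992 bp on 3LHet (3LHet:740711-1395702) and 441806 bp on 3RHet (3RHet:950803-1392608). On 3RHet all 7 regions called in all 4 libraries lay in the upper-coordinate part of the span, between 3RHet:1703631-1709686 and 3RHet:2502169-2516605, and on 3LHet 10 of 13 did.

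Calls per library were then compared over the merged regions. On chromosome 4, 20 of 50 regions (40%, 95% Wilson interval 27.6 to 53.8) were called in all 4 libraries, and on the Het sequences 34 of 81 (42.0%, 31.8 to 52.8), against 49.0% of all 4731 regions. On the large arms the share was 54.0%. Regions of WT 1 alone count in these totals. They were 19 of the 81 on the Het sequences, 11.0% of all regions and 4.81% of those on the large arms. 3LHet had the highest share, 13 of 21 (61.9%, 40.9 to 79.2), and 3RHet a low one, 7 of 24 (29.2%, 14.9 to 49.2). Of the 50 chromosome 4 regions, WT 2 called 46, WT 1 called 40, dH1 RNAi 1 called 32 and dH1 RNAi 2 called 24. These were 92%, 80%, 64% and 48% of them, against 80.0%, 76.4%, 74.2% and 59.1% of all regions in the same order. On the large arms the shares were 87.4%, 75.5%, 80.0% and 64.0%. Both dH1 RNAi libraries missed 16 of the 50 (32%), against 23.0% of all regions, and both WT libraries missed 1 (2%), against 4.92%. The shares missed were not computed for the large arms alone.

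Regions called in both WT libraries and in neither dH1 RNAi library, WT-only regions in what follows, were 10 of 50 on chromosome 4 (20%, 11.2 to 33.0) and 1 of 81 on the Het sequences (1.23%, 0.218 to 6.67), against 3.64% of all regions. Those called in both dH1 RNAi libraries alone were 0 of 50 on chromosome 4 and 2 of 81 on the Het sequences (2.47%, 0.680 to 8.56), against 1.06% of all regions. With lists of equal size, chromosome 4 had 5 WT-only regions of 37 (13.5%, 5.91 to 28.0) and 1 dH1-only region (2.70%), and the Het sequences had 0 and 1 of 66. All regions then gave 2.52% WT-only and 2.10% dH1-only, and 51.6% called in all 4, against 17 of 37 on chromosome 4 and 34 of 66 on the Het sequences. Of the 10 WT-only regions, 3 were still WT-only with lists of equal size and 4 were no longer regions in any list. Without dH1 RNAi 1, where the criterion is easier to meet, the number on chromosome 4 was 16. The share of all regions was not computed in that setting.

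The WT-only regions of chromosome 4 were narrow and weak, as WT-only regions were in general. Their merged widths were 1240 to 3242 bp, with a median of 1664 bp against 4041 bp for the 20 regions of all 4 libraries. A merged width can grow with the number of lists merged. The median of all 172 WT-only regions was 1825 bp, and their median percentile was 16.8, against 18.7 on chromosome 4. The strongest by its weaker library was chr4:1202328-1205328, at percentile 50.1 in WT 1 and 37.8 in WT 2, with widths of 2594 and 3001 bp. The widest, chr4:715671-718912, was at 57.4 in WT 1 and 24.4 in WT 2 and bordered the longest gap of the chromosome. The region chr4:887087-889206, at 30.7 and 19.2, stood alone between the 2 longest gaps, so that in dH1 RNAi the empty stretches on its sides were joined. The neighbours chr4:463542-465197 (16.1 and 17.3) and chr4:466454-468207 (33.0 and 29.8) were close together. The others named by the rule were chr4:328042-329577, chr4:590625-591864 and chr4:1080478-1082149, which lay between percentiles 5.59 and 32.6 in the WT lists. The remaining pair was chr4:83047-84433 and chr4:1234093-1235420, at 26.8 and 12.7 in WT 1 and 6.88 and 2.70 in WT 2. How far the dH1 RNAi libraries fell short of a call at these places cannot be read from peak lists.

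Condition-specific Het regions were as weak. The WT-only region was 3RHet:1768039-1769734, at percentile 13.6 in WT 1 and 13.0 in WT 2, and it lay next to 3RHet:1770116-1773752, a region of all 4 libraries. The dH1-only regions were both on 2RHet. 2RHet:1255572-1257922 was at 5.08 in dH1 RNAi 1 and 1.61 in dH1 RNAi 2, and 2RHet:1375112-1376816 at 2.41 and 21.8. All peaks of these 3 scored below 100, so that a required score of at least 100 removes them by definition.

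More of the Het regions belonged to WT 1 by itself than to a condition. WT 1 alone called 19 of 81 Het regions (23.5%, 15.6 to 33.8) and 2 of 50 on chromosome 4 (4.00%, 1.10 to 13.5), against 11.0% of all regions and 4.81% of those on the large arms. The 19 were wide, with a median of 5378 bp and 11 of at least 5 kb, and in the middle of the list, with a median percentile of 50.6. Regions of the large arms called in WT 1 alone had a median of 2805 bp and percentile 24.2. The widest was 2RHet:1143819-1155753, a single WT 1 peak of 11935 bp at percentile 64.1. On 3RHet 7 of 24 regions were of this kind, with a median width of 6086 bp, and on chromosome 4 the wide region chr4:342321-349140, at percentile 53.2, was one. Together with its peaks on U and Uextra, these regions set WT 1 apart from all 3 other libraries. Their part in the Het values of WT was not tested beyond leaving out WT 1.

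Pairs of lists were also compared by the share of each that overlapped the other. Of the chromosome 4 peaks of dH1 RNAi 2, 96.4% overlapped a peak of WT 1 and 96.4% one of WT 2, while 54.8% and 47.9% of the WT 1 and WT 2 peaks overlapped one of dH1 RNAi 2. Over all peaks the same shares were 88.1% and 92.1%, and 68.3% and 68.3%, so that the asymmetry was present in the whole lists too. For dH1 RNAi 1, 81.8% of its chromosome 4 peaks overlapped one of WT 1 and 93.9% one of WT 2, against 81.8% and 90.4% of all its peaks, and 66.7% and 64.6% did in the other direction, against 79.4% and 83.7%. On the Het sequences 89.1% of WT 2 peaks overlapped a WT 1 peak and 62.1% the other way round, against 76.8% and 80.8% of all peaks. The dH1 RNAi lists shared 80.4% of the Het peaks of replicate 1 and 91.1% of those of replicate 2, against 75.9% and 95.3% of all.

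The regions of all 4 libraries allow rank and width to be compared place by place. On chromosome 4, the median of the 20 in each list was at percentile 72.3 in WT 1, 54.0 in WT 2, 56.7 in dH1 RNAi 1 and 42.3 in dH1 RNAi 2. The conditions overlapped in these medians. The percentile was highest in WT 1 for 16 of the 20 and lowest in dH1 RNAi 2 for 13. The mean percentile changed from WT to dH1 RNAi by a median of -10.9 points on chromosome 4 (range -27.8 to 3.19), against -2.71 over all 2320 such regions. The percentile was lower in both dH1 RNAi libraries than in both WT libraries for 7 of 20 (35%, 18.1 to 56.7), against 24.6% of all, and higher for 0 of 20, against 9.18%. Ranked among the regions of all 4 libraries alone, which removes the lengths of the lists, 7 were again lower and 0 higher, against 18.6% and 14.0% of all. The criterion is easier to meet with 3 libraries, and the regions counted are then those called in all 3, not these 20. The number lower was 18 without WT 2, 15 without dH1 RNAi 1 and 12 without dH1 RNAi 2. It was smallest without WT 1, the setting in which 6 regions were higher. The number higher was 3 without dH1 RNAi 2. Shares of all regions were not computed with 3 libraries.

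Widths of the same 20 regions were mostly smaller in dH1 RNAi. The called width was lower in both dH1 RNAi libraries for 12 of 20 (60%, 38.7 to 78.1), against 42.8% of all regions of this kind, and higher for 0 of 20, against 7.72%. The median change was -0.17 on the log2 scale, against -0.07 over all. In dH1 RNAi 2, 3 of the 20 regions were called as more than 1 peak, against 1 in each other library, and their called widths are the sums of those peaks. With a library left out, the regions counted are those called in all the libraries left, a set other than these 20. The number lower was then 20 without dH1 RNAi 1, and the number higher was 1 without WT 1 and 3 without dH1 RNAi 2. Shares of all regions were not computed in these settings. This comparison of widths was added after the values were seen.

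Among the single regions of chromosome 4, chr4:1045817-1054005 was the strongest. It had the tied score of 3100 in WT 1, WT 2 and dH1 RNAi 1, where its place cannot be compared, and ranked 24th in dH1 RNAi 2 with a score of 1646. It was also the widest of the chromosome, called over 8050, 8189, 7114 and 6927 bp in that order. Its width was lower in both dH1 RNAi libraries. The next strongest, chr4:679446-685603, was at percentile 96.5 and 93.2 in WT and 91.0 and 83.2 in dH1 RNAi. In dH1 RNAi 2 this region was called as separate peaks, and the percentile is that of the stronger. chr4:198330-203720 was at 94.7 and 90.7 in WT and 89.6 and 82.0 in dH1 RNAi, with widths of 5159 and 4887 bp against 4439 and 3849 bp. chr4:62505-66786, the first region of the chromosome, was at 91.3 and 86.7 against 80.5 and 74.5. These 3 did not overlap between conditions.

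The regions with the largest differences among those that separated were chosen by that difference, and are given as a description. chr4:1305561-1307289 was at percentile 38.2 and 45.0 in WT and 19.5 and 8.17 in dH1 RNAi, and its width was 1729 and 1707 bp against 1016 and 1017 bp. chr4:377631-381609 was at 84.3 and 61.0 against 53.4 and 37.1, with widths of 3833 and 3979 bp against 2702 and 2399 bp. chr4:211426-216540 was at 89.4 and 84.7 against 70.0 and 69.1, and chr4:154167-158269 at 87.7 and 84.4 against 81.6 and 65.3. In all of these both dH1 RNAi values were below both WT values. Others did not separate. chr4:148452-152934 was at 87.4 and 70.0 in WT and 76.6 and 53.7 in dH1 RNAi, chr4:1318025-1322296, the last region, at 74.7 and 65.6 against 71.1 and 67.4, and the wide chr4:246018-252673 at 73.8 and 74.0 against 82.9 and 41.4.

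The 34 Het regions of all 4 libraries behaved otherwise. Their medians were at percentile 93.2 in WT 1, 70.2 in WT 2, 87.3 in dH1 RNAi 1 and 82.0 in dH1 RNAi 2. Both dH1 RNAi libraries lay between the WT libraries. The percentile was highest in WT 1 for 22 of the 34 and lowest in WT 2 for 23. The median change was 1.18 points (range -25.5 to 14.1). The percentile was lower in both dH1 RNAi libraries for 2 of 34 (5.88%, 1.63 to 19.1) and higher in both for 3 (8.82%, 3.05 to 23.0), against the 24.6% and 9.18% of all regions of this kind. These counts rest on the distance between the WT replicates: without WT 1, 23 were higher in dH1 RNAi, and without WT 2, 26 were lower. With a library left out, the regions counted are those called in all 3 libraries left, not these 34. The share of all regions was not computed in that setting. With all 4 libraries, ranked among the common regions alone, 1 was lower and 4 were higher. In both ways of ranking, 1 of the higher regions was tied in score at 3100 in WT 1 and in both dH1 RNAi libraries, and without it 2 and 3 of 33 were higher, against 9.08% and 13.9% of all. This count was added after the values were seen.

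Widths on the Het sequences also differed from the rest. The called width was higher in both dH1 RNAi libraries for 11 of 34 (32.4%, 19.1 to 49.2), against the 7.72% of all regions of this kind, and lower for 7 (20.6%, 10.3 to 36.8), against 42.8%. The 11 were 5 of 11 common regions on 2RHet, 3 of 13 on 3LHet and 3 of 7 on 3RHet. The median change over the 34 was -0.0015 on the log2 scale (range -0.513 to 0.463), against -0.07 over all. This comparison of widths was also added after the values were seen. With a library left out, the regions counted are again those called in all 3 libraries left, not these 34. The number wider was then 18 without dH1 RNAi 2. The number narrower was 12 without WT 1, 11 without WT 2 and 18 without dH1 RNAi 1. Shares of all regions were not computed in these settings. In dH1 RNAi 2, 8 of the 34 regions were called as more than 1 peak, against 3 in dH1 RNAi 1 and 1 and 2 in WT, and their called widths are the sums of those peaks.

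**Figure D4:**
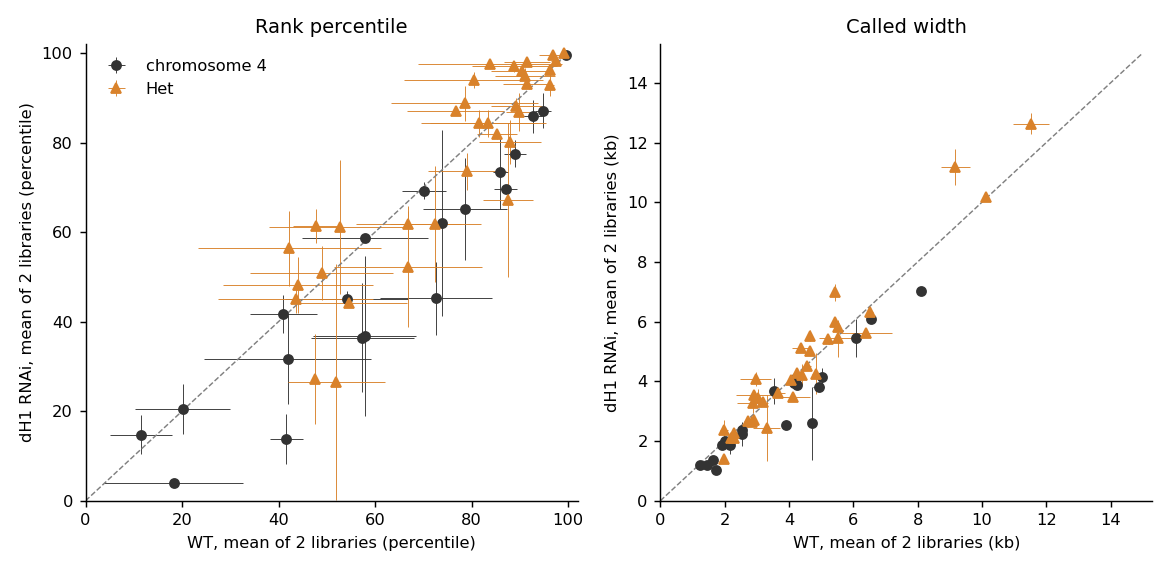
Percentile within the list (left) and called width in kb (right) of each region called in all 4 libraries, with the mean of the 2 WT libraries on the x axis, the mean of the 2 dH1 RNAi libraries on the y axis, lines over the range of the 2 libraries and a dashed line of equality. Chromosome 4 regions lay mostly below the line, with a median change of -10.9 points, and Het regions on both sides of it, with a median change of 1.18 points and several of the widest above it.

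The widest region was on 3RHet. 3RHet:2502169-2516605, at the end of the span, was 14437 bp when merged and was called as 3 peaks in WT 1 and 2 in each other library. Its called width was 10957 and 12080 bp in WT and 12284 and 12973 bp in dH1 RNAi, and its percentile was 96.2 and 86.7 against 97.8 and 98.1. 3LHet:598553-610336 was called over 8720 and 9631 bp in WT and over 11784 and 10574 bp in dH1 RNAi, and was at percentile 94.0 in WT 2, 99.3 in dH1 RNAi 1, 99.9 in dH1 RNAi 2 and at the tied score in WT 1. Both regions were wider in each dH1 RNAi library than in either WT library.

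The strongest Het region, 2LHet:30091-40327, had the tied score of 3100 in WT 1 and both dH1 RNAi libraries, so that its order among these cannot be read, and ranked 60th in WT 2 with a score of 2676. Its width hardly varied, from 10102 to 10215 bp. 2RHet:195695-200781 was at percentile 98.4 and 96.5 in WT and 98.7 and 97.5 in dH1 RNAi, and 3LHet:2240077-2244850 at 96.4 and 96.1 against 96.8 and 95.5. Both differed between conditions by less than between replicates. 2RHet:335152-341753 was at 97.1 and 95.3 in WT and 95.2 and 90.4 in dH1 RNAi.

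Few Het regions separated by rank. 2RHet:1546553-1548918 had the largest difference upward among those that did, with 52.8 and 42.9 in WT and 65.2 and 57.5 in dH1 RNAi, with a width of 2218 to 2330 bp in all libraries. 3RHet:2502169-2516605 was the other that was higher, apart from 2LHet:30091-40327 with its tied scores. XHet:60366-62374, the one XHet region of all 4 libraries, was at 47.7 and 47.4 in WT and 37.2 and 17.1 in dH1 RNAi, and its width was 1960 and 1989 bp against 1497 and 1271 bp. It had the largest difference downward of the Het regions that separated. On YHet no region was called in all 4 libraries, and YHet:154624-156077 was called in WT 1 at percentile 29.6 and in the dH1 RNAi libraries at 8.12 and 4.43.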

How the data were processed

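γH2Av ChIP-seq of S2 cells comprised 8 samples, 4 ChIP libraries and 4 inputs, grouped by the sample labels. The authors aligned reads to dm3 with Bowtie 0.12.5 (up to 2 seed mismatches, all sites kept up to 10000), removed duplicates with sambamba and called peaks with MACS 1.4 (p below 1e-05) library by library against the matching input, without pooling. The processing notes also name MACS 1.4.2 and FastQC 0.10.1. The deposited lists give a position and a score, -10 times the log10 of the caller's p-value. The lowest score was 50.01. Multiple alignment lets repeats share reads, and the score grows with depth, which peak lists do not hold. Precision therefore follows from the number of peaks, and 95% Wilson intervals cover counting error only. The 4 identical copies of the lists were not used.

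Peaks overlapping by at least 1 bp were merged (Python 3.11.15, numpy 2.4.6, scipy 1.17.1, matplotlib 3.10.9). In a region, a library's percentile is that of its strongest peak, and its width is the sum of its peaks. Rank 1 is the highest score in a list, and tied scores share a rank. Tests on the values of the libraries were exact permutation tests over labelings and exact sign-flip tests within libraries, all two-sided. Shares of regions were described beside those of all regions, without a test. The members and the rule were chosen with earlier results of these data known. The rule named the 8 chromosome 4 and 5 Het regions of all 4 libraries with the best worst-case rank, the 10 best condition-specific regions, the 3 widest of each kind, the region of each Het sequence called in most libraries, and up to 5 rises and 5 falls of percentile without overlap. The other 3 condition-specific regions and 3RHet:1770116-1773752 were named after their values were seen. Alternatives were a score of at least 100, lists of equal size, each library left out, the replicate number as a block, another span, peaks up to 1000 bp apart joined, overlap of 50% of the shorter peak, XHet and YHet left out, and means of medians over the Het sequences. The procedure was tested on simulated data.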

Additional observations from a re-analysis of the deposited data

Results flagged for a closer look

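The density of peaks on chromosome 4 relative to the large arms lay on opposite sides of equality in the conditions. Its log2 ratio was 0.21 and 0.20 in WT 1 and WT 2 and -0.25 and -0.19 in dH1 RNAi 1 and 2, a difference of -0.43 (exact permutation test, p = 0.333, the smallest possible with 2 libraries against 2). This difference was computed after the values were seen. With a score of at least 100 it was -0.68, and WT 2 was then at -0.09. With lists of equal size it was -0.32, with values of 0.22, -0.33, -0.56 and -0.19 in the same order, so that WT 2 fell among the dH1 RNAi libraries. The part of list length in it was not tested beyond this.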

How the results depend on the processing

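Comparisons within libraries, averaged over the libraries, kept their direction in all but 1 case. The settings were a score of at least 100, lists of equal size, another span, joined peaks and each library left out. Single libraries did not all do so. With lists of equal size, chromosome 4 minus large arms median width was -750.5 and 206 bp in WT and -41 and -616.5 bp in dH1 RNAi. The exception in the average was the chromosome 4 to large arms density ratio. That ratio, -0.01 on the log2 scale, was 0.0636 with the span taken from the lowest peak start, 0.0605 with peaks up to 1000 bp apart counted as 1, and from -0.0779 to 0.0758 with single libraries left out. The difference in median percentile (dH1 RNAi minus WT) turned to 5.60 on chromosome 4 and 1.64 on the Het sequences with a score of at least 100, and to 0.782 on chromosome 4 with lists of equal size, where its difference in median width was -267 bp. The cause was not tested. With each library left out in turn, chromosome 4 gave -19.6 to 3.20 points in percentile and -6.5 to 142 bp in width, and the Het sequences -0.910 to 0.274 points in covered share and -1039 to 52.8 bp in width. The signs turned without WT 1, and for the width on chromosome 4 without dH1 RNAi 1. Counts of regions were small. With a score of at least 100, chromosome 4 had 13 regions of all 4 libraries, and the Het sequences had 0 WT-only and 0 dH1-only regions. With lists of equal size, chromosome 4 had 5 WT-only and 1 dH1-only regions, and the Het sequences 0 and 1, with 1 common Het region lower in rank. Joining peaks up to 1000 bp apart gave 0 WT-only and 1 dH1-only Het regions, and ranking common regions among themselves gave 1 lower Het region. With 3 libraries the criteria are easier to meet: chromosome 4 then had 12 to 16 WT-only and 0 to 1 dH1-only regions, 8 to 18 common regions lower in rank, 0 to 6 higher, 15 to 20 narrower and 0 to 3 wider. The Het sequences had 1 to 20 WT-only and 4 to 8 dH1-only regions, 2 to 26 common regions lower in rank, 3 to 23 higher, 10 to 18 narrower and 11 to 18 wider.

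The replicate numbers do not pair the libraries by any label, and the deviations of libraries with the same number were correlated at -0.14 over all regions. With the replicate number as a replicate block the difference in chromosome 4 peaks was again -14.5, from -9 and -20 in the pairs (exact sign-flip permutation test, p = 0.5, the smallest possible), and with the pairs crossed, an alternative added after the data were seen, it was -14 and -15. The block changed the direction of no result and could move none past 0.05.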
